A study of Mus musculus with 8 samples.

Results

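The connecting cilium and transition zone genes described here were 39 mouse genes, chosen by symbol, that encode proteins of the photoreceptor connecting cilium, the gate at the base of other cilia, or the machinery that delivers cargo to it. The list was chosen with earlier results of these data known, so its shares beside those of all genes are descriptive. Many of these genes are mutated in retinitis pigmentosa, Leber congenital amaurosis, Joubert syndrome, Meckel syndrome, nephronophthisis or Usher syndrome. A probe was assigned to a gene through the RefSeq transcript that the array design names for it, and each gene was read from its brightest probe over all arrays. The 39 genes were part of 20018 genes named in this way, and 38 of them passed the filter on dim probes, against 14938 of all named genes. The exception was Cdh23, whose probe stayed near background on all 8 arrays.

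The study asked how loss of lysophosphatidylcholine acyltransferase 1 (LPCAT1), an enzyme that makes saturated phosphatidylcholine, leads to the death of photoreceptor cells. Total RNA from whole retina of C57BL/6 mice at 2 weeks of age was labelled with Cy3 and hybridised to Agilent mouse expression arrays. There were 4 Lpcat1 WT and 4 Lpcat1 KO samples, and 1 array was run for each. The knockout was global, so LPCAT1 was lost from every cell type of the retina and from all other tissues. The mice descended from a C57BL6/N line crossed with C57BL6/J to remove the retinal degeneration allele rd8 of Crb1, and those homozygous for rd8 were not used, so a heterozygous rd8 allele could be present in either genotype. The labels number the samples as replicates without stating that each came from another animal. The p-values below therefore set the genotype difference against the spread between these samples, which may not be the spread between animals.

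The connecting cilium is the narrow bridge through which every protein and lipid of the outer segment must pass. It corresponds to the transition zone of a primary cilium, where fibres link the microtubule doublets to the membrane and where protein modules named after Meckel syndrome (MKS) and nephronophthisis (NPHP) form a barrier. Outer segment discs are renewed throughout life, so this traffic is continuous, and defects of the bridge are a common cause of inherited photoreceptor loss. The rods build their outer segments in the first weeks after birth in the mouse, which includes the age sampled here.

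Levels below are log2 signals relative to the array's 75th percentile, so that 0 is the signal at that percentile, and differences are KO minus WT on the same log2 scale. A gene was called when limma gave a Benjamini-Hochberg adjusted p under 0.05 over all 33975 tested probes and the fold change was over 1.2, the thresholds of the study. The arrays had 33117 to 36373 probes well above background, and no spot was saturated. The WT arrays occupied one row of the slide and the KO arrays the other, so genotype and slide row cannot be told apart. The targeted gene itself, Lpcat1, had levels of -0.42, -0.39, -0.43 and -0.38 in WT and -0.88, -0.92, -0.90 and -0.78 in KO. Lpcat1 was thus lower on each KO array than on any WT array, with signal at 72.5% of WT (difference -0.46, SE 0.04, adjusted p = 0.0036). The sources used here do not settle whether its probe lies in the deleted part of the gene.

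Most of the connecting cilium genes had slightly lower mean levels in KO retina, and few of the differences passed the test. Fam161a, whose product binds the microtubules of the connecting cilium, and Tctn1, a tectonic of the transition zone, were called lower (2 of 38), and none was called higher. Over all tested genes, 1.49% were called lower and 1.99% higher. The mean was lower in KO for 31 of the 38 genes and higher for 7, with a median difference of -0.09 and a range from -0.29 to 0.09. Of all tested genes, 57.8% had a lower mean in KO and the median was -0.02. The number with a lower mean depended on the scaling, with 27 of 38 after quantile normalization, where the median was -0.055, or when the percentile was taken over probes detected on all arrays, 28 with the authors' values and 29 after a median shift.

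**Figure D1:**
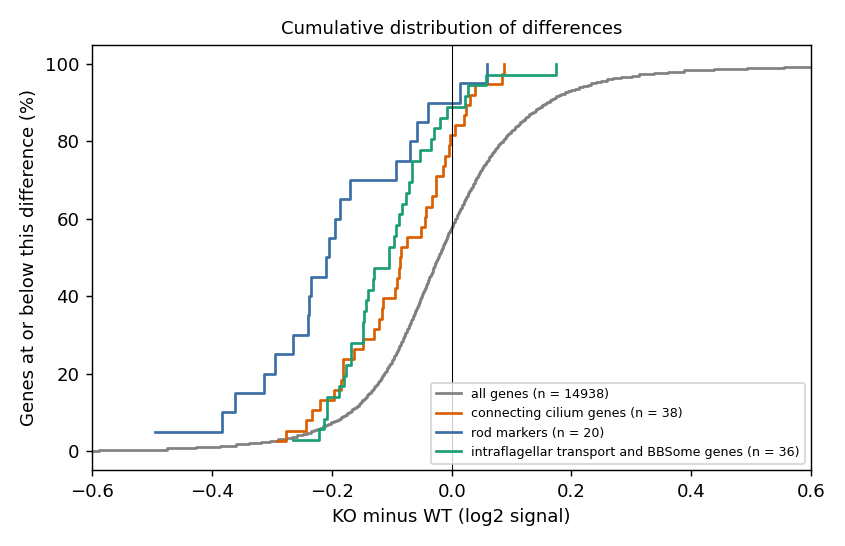
Cumulative share of genes (y axis, percent at or below the value) by KO minus WT difference (x axis, log2 signal, drawn from -0.6 to 0.6) for the 38 tested connecting cilium genes, 36 intraflagellar transport and BBSome genes, 20 rod markers and all 14938 tested genes. The line of the connecting cilium genes lies between that of all genes and that of the rod markers over most of its course, with medians of -0.09, -0.02 and -0.21 for the 3 lists.

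Adjusted p was under 0.05, without a minimum fold change, for 7 of the 38 genes, all lower in KO, against 3.32% of all tested genes that were lower by this rule. Among them were Rpgr and Rpgrip1 of the scaffold group, Tctn1, Tctn2 and B9d1 of the MKS group and Fam161a of the axoneme. For 11 of the 38 genes (28.9%), each KO array was below each WT array, against 12.4% of all tested genes. The reverse, each KO array above each WT array, held for Rab11fip3 alone, or 1 of 38, against 8.78% of all tested genes. The 2 genotypes overlapped for the other 26.

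**Figure D2:**
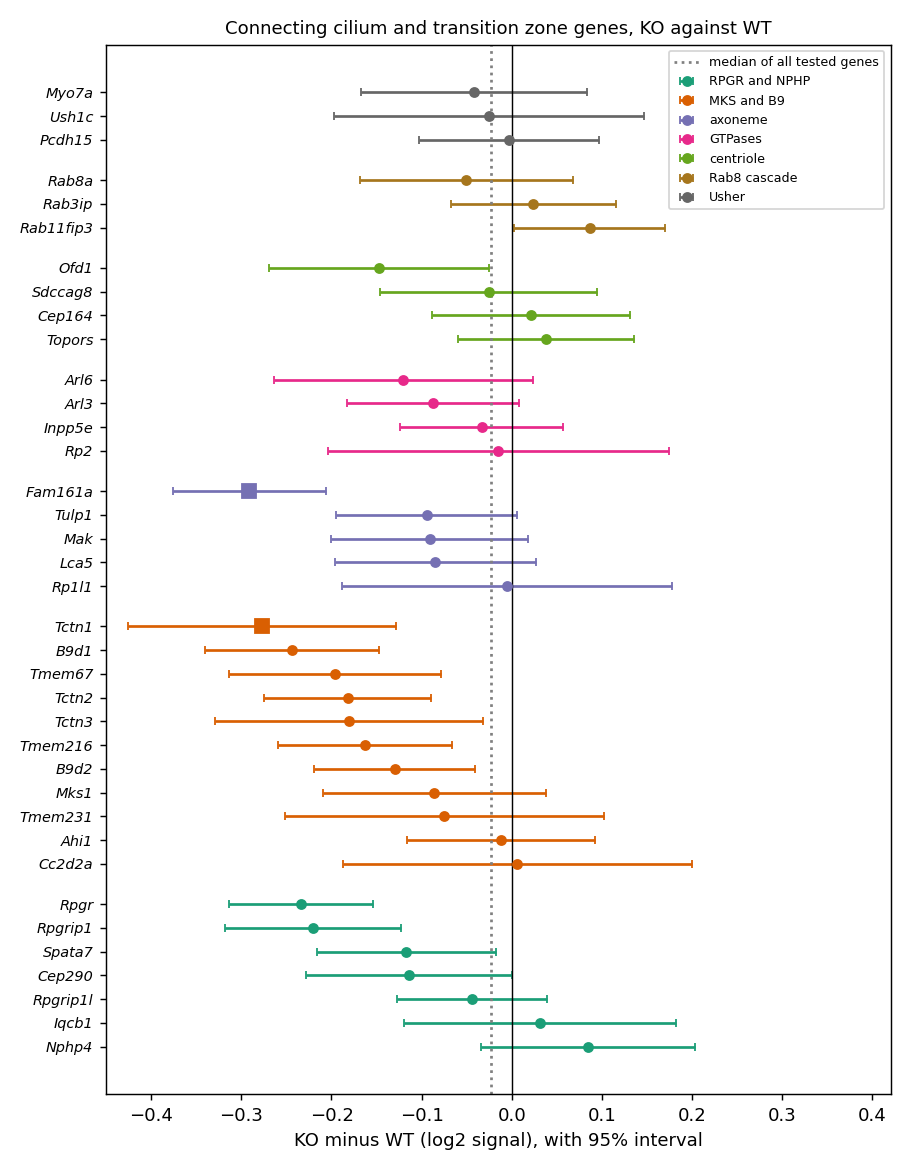
KO minus WT difference (x axis, log2 signal) with its 95% interval for 37 of the 38 tested genes, grouped by the role of the product, with squares for the 2 called genes and a dotted line at the median of all tested genes. The MKS and B9 group holds 10 of 11 points to the left of 0, and the rightmost point is Rab11fip3 of the Rab8 group, at 0.09.

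The scaffolds of the RPGR and NPHP modules hold the ciliary gate together. RPGR, the product of the most frequently mutated gene of X-linked retinitis pigmentosa, is tethered to the connecting cilium by RPGRIP1. The level of Rpgr was 2.98, 3.03, 2.97 and 3.04 on the WT arrays and 2.75, 2.78, 2.78 and 2.79 on the KO arrays. The 4 KO values lay within a narrow band, below all WT values. The KO signal was 85.0% of WT (difference -0.23, SE 0.03, adjusted p = 0.0146), which is under the 1.2-fold limit. Leaving out 1 array at a time gave differences of -0.25 to -0.22 with adjusted p = 0.0277 to 0.0574 for Rpgr. Rpgrip1 had levels of 7.05, 7.15, 7.14 and 7.13 in WT and of 6.85, 6.88, 6.96 and 6.89 in KO. The groups did not overlap for Rpgrip1 either, and its KO signal was 85.8% of WT (difference -0.22, SE 0.04, adjusted p = 0.0296, or 0.0459 to 0.0904 with 1 array left out). After quantile normalization the difference of Rpgrip1 was -0.10 (adjusted p = 0.157).

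The other 5 scaffolds did not pass the test. Spata7, which encodes a partner of RPGRIP1 at the connecting cilium, had all KO values below all WT values, with a difference of -0.12 and an adjusted p of 0.151. Cep290, whose product bridges microtubules and membrane, differed by -0.11 (95% interval -0.23 to 0.00). The paralogue Rpgrip1l differed by -0.04 (-0.13 to 0.04). Nphp4, which encodes nephrocystin 4, differed by 0.08 (-0.03 to 0.20), or 0.06 without WT replicate 3, and Iqcb1, whose product nephrocystin 5 binds calmodulin, by 0.03 (-0.12 to 0.18). Of this group, 5 of 7 genes had a lower mean in KO under each of the scalings tried, with a median of -0.11.

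The MKS and B9 complex, a set of membrane and soluble proteins that restricts entry into the cilium, had the lowest median of the groups. The median difference of its 11 genes was -0.16, 10 had a lower mean in KO, and for 6 (54.5%) each KO array was below each WT array, against 12.4% of all tested genes. After the other scalings the median lay between -0.15 and -0.13, with 9 to 11 genes lower. No test was made of this group as a whole.

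The level of Tctn1 was -0.85, -0.78, -0.69 and -0.72 in WT and -0.98, -0.98, -0.98 and -1.21 in KO. The KO arrays were all lower than the WT arrays, with 3 of them close together and the fourth lower still. Tctn1 was called lower at 82.5% of WT (difference -0.28, SE 0.06, adjusted p = 0.0478). This call was not held when any 1 of the 8 arrays was left out, with differences of -0.31 to -0.22 and adjusted p = 0.0598 to 0.119, and the difference was -0.22 without KO replicate 4. B9d1, which encodes a B9 domain protein of the gate, had levels of 2.41, 2.45, 2.45 and 2.45 in WT and of 2.17, 2.15, 2.29 and 2.17 in KO. The WT arrays were nearly equal and KO replicate 3 was the closest to them. B9d1 differed by -0.24 (SE 0.04, adjusted p = 0.0218), short of the fold limit, and without KO replicate 3 it was called lower (-0.28, adjusted p = 0.0275). Over the 8 omissions of 1 array its adjusted p was 0.0275 to 0.0718, highest without WT replicate 2. A second tectonic, Tctn2, had levels of 2.94, 3.01, 3.02 and 2.91 in WT and of 2.76, 2.78, 2.83 and 2.78 in KO. Its difference was -0.18 (SE 0.04, adjusted p = 0.0422, or 0.0608 to 0.117 with 1 array left out), again with no overlap.

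Tmem67, which encodes the receptor-like protein meckelin, had no overlap between genotypes but did not pass (difference -0.20, adjusted p = 0.0638). The same held for Tmem216, another transmembrane component (-0.16, adjusted p = 0.0616, or -0.10 as the mean of its probes), and for B9d2 (-0.13, adjusted p = 0.0896). In the third tectonic gene, Tctn3, the difference was -0.18 (95% interval -0.33 to -0.03), or -0.12 with normexp background correction, with overlapping arrays and an adjusted p of 0.139. Mks1 differed by -0.09 (-0.21 to 0.04) and Tmem231 by -0.07 (-0.25 to 0.10), or -0.12 without WT replicate 1 and -0.02 without WT replicate 3. The 2 remaining genes of the group were near 0 and changed sign with the scaling, with Ahi1, which encodes jouberin, at -0.01 (-0.12 to 0.09) and Cc2d2a at 0.01 (-0.19 to 0.20).

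**Figure D3:**
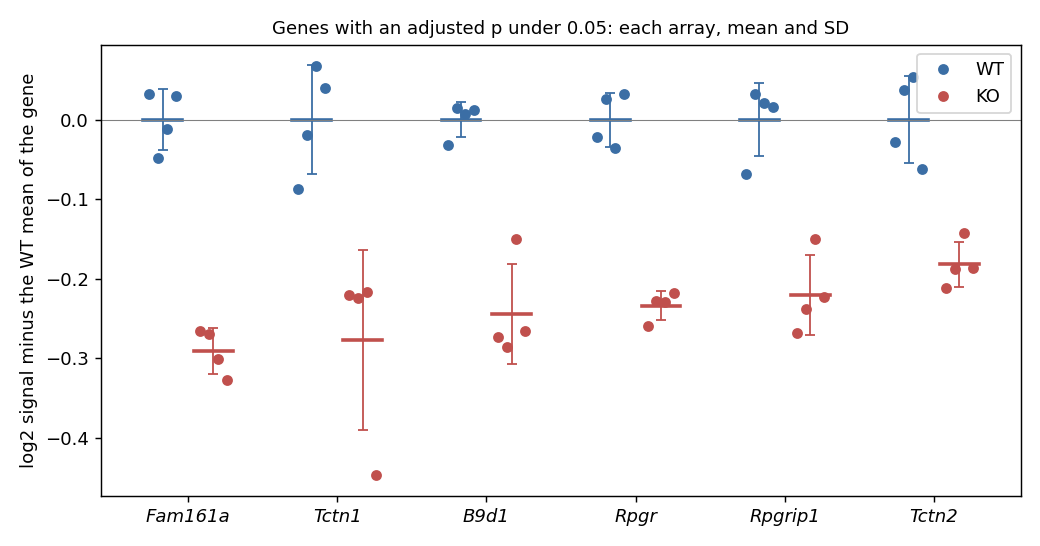
Level of 6 of the 7 genes with an adjusted p under 0.05 on each of the 4 WT and 4 KO arrays, as log2 signal minus the WT mean of the gene (y axis), with horizontal bars for the means and error bars for the SD (n = 4). For each gene the KO points lie below the WT points, and for Tctn1 KO replicate 4 lies well below the other 3.

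The axoneme genes encode proteins on or beside the microtubules of the photoreceptor cilium. Fam161a, a retinitis pigmentosa gene, had levels of 2.65, 2.57, 2.60 and 2.64 in WT and of 2.35, 2.34, 2.31 and 2.29 in KO. The spread within each genotype was small beside the gap between them. Fam161a fell to 81.7% of WT (difference -0.29, SE 0.04, 95% interval -0.38 to -0.21, adjusted p = 0.00986). It was called whichever of the 8 arrays was omitted, with differences of -0.31 to -0.28. Tulp1, which encodes a tubby family protein needed for protein transport to the outer segment, had levels of 5.0, 5.04, 5.02 and 5.09 in WT and of 4.88, 4.90, 4.98 and 5.01 in KO. The groups overlapped for Tulp1, and the difference of -0.09 (-0.20 to 0.01), or -0.02 after quantile normalization, did not pass.

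The differences of the other axoneme genes did not pass either. Mak, which encodes a kinase that limits ciliary length, differed by -0.09 (-0.20 to 0.02) and Lca5, the lebercilin gene, by -0.08 (-0.20 to 0.03). Without WT replicate 4 these were -0.06 and -0.05. Rp1l1, whose product binds the outer segment axoneme, differed by -0.01 (-0.19 to 0.18) and was above 0 after 4 of the other scalings.

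A further group holds small GTPases and enzymes that sort lipid-modified cargo into the cilium. ARL3 releases such cargo from its carriers, and RP2 then inactivates ARL3. Arl6, which encodes the GTPase that recruits the BBSome, a coat complex of ciliary membrane traffic, had levels of 3.76, 3.86, 3.77 and 3.99 in WT and of 3.63, 3.76, 3.75 and 3.77 in KO. The groups met at their edges, and the difference of -0.12 (-0.26 to 0.02) did not pass. It was -0.09 without KO replicate 1 and -0.07 without WT replicate 4. Arl3 differed by -0.09 (-0.18 to 0.01), or -0.05 after quantile normalization, and Rp2 by -0.02 (-0.20 to 0.17). Inpp5e, which encodes a phosphoinositide phosphatase of the ciliary membrane, differed by -0.03 (-0.12 to 0.06). The mean was lower in KO for all 5 genes of this group, or for 4 of 5 with the percentile of probes detected on all arrays, where Rp2 was above 0.

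The centriole genes act at the basal body, from which the cilium grows. Ofd1, which encodes a protein of the distal centriole, had levels of 1.54, 1.56, 1.58 and 1.65 in WT and of 1.57, 1.41, 1.41 and 1.37 in KO. KO replicate 1 lay among the WT arrays and the other 3 KO arrays below them, and the difference of -0.15 (-0.27 to -0.03) had an adjusted p of 0.141. Topors, which encodes a ubiquitin and SUMO ligase, had levels of 0.72, 0.59, 0.67 and 0.63 in WT and of 0.74, 0.70, 0.68 and 0.65 in KO, which overlapped (difference 0.04, -0.06 to 0.14). Cep164, whose product forms the distal appendages that dock the basal body, differed by 0.02 (-0.09 to 0.13). Sdccag8, which encodes a centrosomal protein, differed by -0.03 (-0.15 to 0.09). None of the 4 passed, and 2 had a lower and 2 a higher mean in KO.

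In the Rab8 cascade, the GTPase RAB8 carries vesicles to the base of the cilium, RAB3IP activates it, and RAB11FIP3 links it to the preceding GTPase. Rab11fip3 had levels of 3.38, 3.37, 3.42 and 3.33 in WT and of 3.44, 3.45, 3.45 and 3.50 in KO. Each KO array was above each WT array, but the difference of 0.09 (95% interval 0.00 to 0.17) had an adjusted p of 0.196. Rab8a had levels of 0.35, 0.50, 0.44 and 0.54 in WT and of 0.35, 0.47, 0.40 and 0.41 in KO, with overlap (difference -0.05, -0.17 to 0.07). Rab3ip differed by 0.02 (-0.07 to 0.12).

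The Usher proteins form links and anchors at the collar around the photoreceptor cilium and in the bundles of inner ear hair cells. Myo7a, which encodes the motor myosin VIIa, had levels of 2.12, 2.13, 2.16 and 2.29 in WT and of 2.04, 2.16, 2.12 and 2.20 in KO. Ush1c, the gene of the scaffold harmonin, had levels of -4.23, -4.01, -4.27 and -4.02 in WT and of -4.19, -4.25, -4.07 and -4.12 in KO. The Ush1c signal was low, at 35.7 to 44.5 in WT and 35.9 to 38.8 in KO. Its other probe was not well above background on any array. The genotypes overlapped in both genes, although KO replicate 1 was below every WT array for Myo7a, with differences of -0.04 (-0.17 to 0.08) for Myo7a and -0.03 (-0.20 to 0.15) for Ush1c. Pcdh15, which encodes a protocadherin, differed by 0.00 (-0.10 to 0.10). None of the 3 tested genes passed, Ush1c and Pcdh15 changed sign with the scaling, and for Cdh23, the gene of the partner cadherin, no fold change is given.

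Several probes measured the same gene for 15 of the 39 genes, and more than 1 was tested for 14 of them. The probes had differences of 1 sign for 11 of the 14, with Cep164, Pcdh15 and Tmem231 as the exceptions. The 4 probes of Rpgr differed by -0.31 to -0.17, and the dimmer one at -0.31 was called lower (SE 0.05, adjusted p = 0.0216) although the brightest was not. Both probes of Rpgrip1 were lower in KO, at -0.22 and -0.18. The 3 probes of Lca5 ranged from -0.26 to -0.08, with a difference of -0.17 for their mean. The 6 tested probes of Pcdh15, a gene with many transcripts, ranged from -0.06 to 0.24. Fam161a, Tctn1, Tctn2 and B9d1 were among the 24 genes with 1 probe, so no second probe was available for either called gene.

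**Figure D4:**
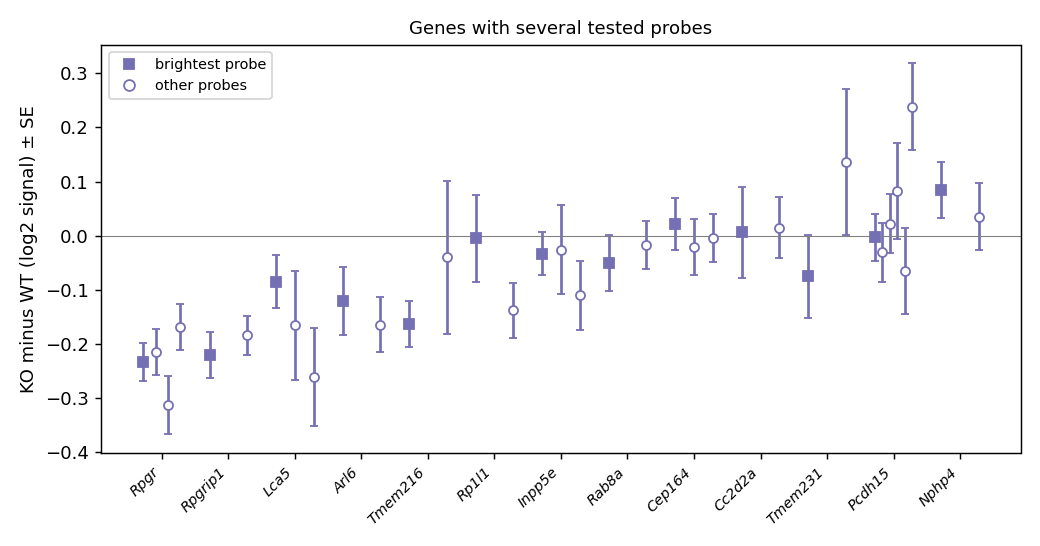
KO minus WT difference (y axis, log2 signal) with its standard error for each tested probe of 13 of the 14 genes with several tested probes (x axis), with a filled square for the brightest probe of a gene and open circles for the others. The 4 Rpgr probes all lie below 0, while the 6 Pcdh15 probes spread from -0.06 to 0.24, with the dimmest at 0.24.

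The bases upstream of the start site are given for the 2 called genes, Fam161a and Tctn1, and for Rpgrip1, another gene with an adjusted p under 0.05, to show windows without a motif match and one with matches. They run 5′ to 3′ on the strand of the gene and are the 250 bases before the RefSeq start in GRCm38.p6. Capitals mark matches, on either strand, to TAATCC, a site of the photoreceptor factor CRX, to GTTGCC, the core of the site of the ciliary RFX factors, or to CCAAT. The Fam161a window is chr11:23008097-23008346 on the plus strand, Tctn1 is chr5:122264461-122264710 on the minus strand and Rpgrip1 is chr14:52110653-52110902 on the plus strand.
Fam161a: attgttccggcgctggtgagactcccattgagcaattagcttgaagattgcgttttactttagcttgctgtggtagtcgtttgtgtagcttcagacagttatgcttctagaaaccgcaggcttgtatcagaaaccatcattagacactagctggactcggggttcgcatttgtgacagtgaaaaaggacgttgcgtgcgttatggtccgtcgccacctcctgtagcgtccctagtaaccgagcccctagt
Tctn1: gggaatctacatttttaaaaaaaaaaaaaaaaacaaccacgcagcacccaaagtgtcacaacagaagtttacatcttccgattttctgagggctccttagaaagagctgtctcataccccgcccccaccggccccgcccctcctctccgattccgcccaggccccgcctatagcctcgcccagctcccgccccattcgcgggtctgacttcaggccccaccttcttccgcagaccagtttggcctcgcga
Rpgrip1: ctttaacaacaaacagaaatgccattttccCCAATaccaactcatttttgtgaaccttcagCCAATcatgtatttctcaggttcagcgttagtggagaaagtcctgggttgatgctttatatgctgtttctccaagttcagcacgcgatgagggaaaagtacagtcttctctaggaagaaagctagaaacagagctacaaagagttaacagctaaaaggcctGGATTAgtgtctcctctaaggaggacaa

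Neither called gene had a match to any of the 3 motifs in this window. Upstream of Rpgrip1 there was 1 match to the CRX site, on the other strand, 28 bases before the start, and 2 to CCAAT. A window was found for 36 of the 39 genes, which did not include Rp1l1, Sdccag8 and Tmem67. TAATCC was present in 2 of the 36 (5.56%), Rpgrip1 and Rab3ip, against 6.37% of 27025 promoters of all genes and 5 of 13 rod genes (38.5%). GTTGCC was present in 5 of 36 (13.9%), among them Mks1, Myo7a, Tctn3 and Tmem231, against 10.5% of all promoters. The same letters were present in 0 of 13 rod genes and in 8 of 34 intraflagellar transport and BBSome genes (23.5%). CCAAT was present in 19 of 36 (52.8%) and in 34.5% of all promoters. It was also present in 7 of 13 rod genes (53.8%) and in 21 of 34 intraflagellar transport and BBSome genes (61.8%). A match is a match of letters only, and binding was not measured.

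The lower values were present on each KO array. Of the 38 genes, 33 were below their WT mean in KO replicate 1, 25 in replicate 2, 29 in replicate 3 and 27 in replicate 4. The shares of all tested genes below their WT mean on these arrays were 57.6%, 58.1%, 53.5% and 53.6%, in the same order. A total of 20 genes (52.6%) were below their WT mean on all 4 KO arrays, against 28.8% of all tested genes, and 3 (7.89%) were above it on all 4, against 19.0%. The median deviation of the 38 genes from their mean over all arrays was 0.01, 0.05, 0.04 and 0.07 in WT and -0.07, -0.06, -0.04 and -0.03 in KO. The genotypes did not overlap by this measure.

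Cell type markers of the retina were read in the same samples. Of 20 rod genes, 18 had a lower mean in KO and 5 were called lower, with a median difference of -0.21 (-0.10 with 15 lower and 2 called after quantile normalization). Of all tested genes, 57.8% had a lower mean in KO and 1.49% were called lower. The summed linear level of the rod genes was 3315 to 3466 in WT and 2825 to 3011 in KO, and that of the connecting cilium genes 315.3 to 330.2 in WT and 287.4 to 300.8 in KO. Rpgrip1 alone made up 39.96% to 43.2% of the latter sum, which without it was 183.0 to 190.0 in WT and 172.3 to 178.4 in KO. In whole retina, fewer rods and less RNA per rod cannot be told apart.

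Markers of the other cells did not follow the rods. For comparison, 1.99% of all tested genes were called higher, and 6300 of 14938 had a higher mean in KO. Of 12 cone genes, 11 had a higher mean in KO and 2 were called, Arr3, the cone arrestin gene, at 0.46 (SE 0.04, adjusted p = 0.00236) and Opn1sw, the blue cone opsin gene, at 0.43 (SE 0.09, adjusted p = 0.0401). The summed cone level was 260.8 to 265.8 in WT and 288.9 to 299.97 in KO. Of 9 Müller glia genes, 8 were higher and 3 called (median 0.20, summed level 342.3 to 360.4 in WT and 408.5 to 417.2 in KO). All 13 tested microglia genes had a higher mean and 7 were called (median 0.34), while their summed levels overlapped, at 34.0 to 41.4 in WT and 38.4 to 44.4 in KO. Of 8 bipolar genes none was called (median 0.01, or 0.09 after quantile normalization), and their summed levels overlapped, at 249.2 to 279.0 in WT and 261.5 to 277.8 in KO. Of 14 other inner retina genes none was called and 10 had a higher mean in KO (median 0.05, or 0.10 with 12 higher after quantile normalization). Each KO array was above each WT array for 4 of these 14, against 8.78% of all tested genes, and their summed level was 272.3 to 276.6 in WT and 284.2 to 294.3 in KO. Of 8 tested pigment epithelium genes 1 was called, Mitf, higher by 0.31, and none of 4 tested lens genes was, with overlapping summed levels for both lists. The part of these cell types in the differences of the connecting cilium genes was not tested.

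**Figure D5:**
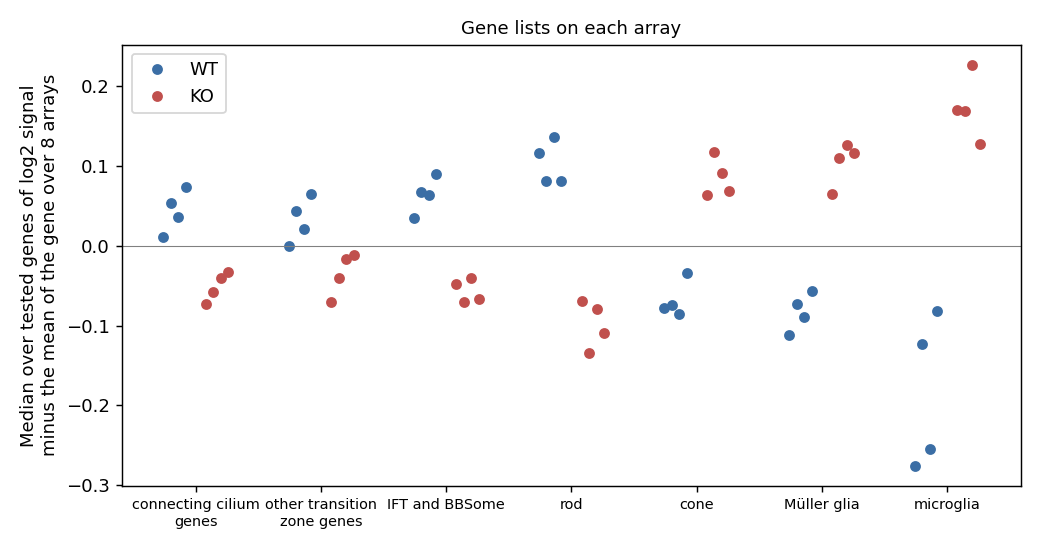
Median over the tested genes of a list of the log2 signal minus each gene's mean over 8 arrays (y axis), with 1 point for each of the 4 WT and 4 KO arrays, for 3 ciliary lists and 4 cell type marker lists (x axis). The KO points lie below the WT points for the ciliary and rod lists and above them for the cone, Müller glia and microglia lists, and the gap of the connecting cilium genes (WT 0.01 to 0.07, KO -0.07 to -0.03) is narrower than that of the rod markers (WT 0.08 to 0.14, KO -0.13 to -0.07).

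Other ciliary genes were read for comparison. Of 38 genes of intraflagellar transport and the BBSome, which move cargo along and out of the cilium, 36 were tested, 32 had a lower mean in KO and the median was -0.10. For 14 of the 36 (38.9%) each KO array was below each WT array, against 12.4% of all tested genes. Bbs5, which encodes a BBSome subunit, was called lower (1 of 36, against 1.49% of all tested genes), with levels of 2.84, 2.83, 2.84 and 2.89 in WT and of 2.68, 2.56, 2.61 and 2.49 in KO. The arrays did not overlap, and the difference was -0.26 (SE 0.05, adjusted p = 0.0242), but with single arrays omitted the call held only without KO replicate 1 (adjusted p = 0.0203, against 0.0537 to 0.0727 in the other 7 cases). In total 7 genes of the list (19.4%) had an adjusted p under 0.05, against 3.32% of all tested genes that were lower by this rule, namely Bbs5, Bbs7, Bbs9, Ttc8, Ttc26, Wdr35 and Ift27, all lower.

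A second list held 39 further genes of the transition zone, basal body and photoreceptor axoneme. Of the 37 tested, 31 had a lower mean in KO, none was called and the median was -0.07, or -0.04 with 29 lower after quantile normalization. Armc9, a Joubert syndrome gene, had an adjusted p under 0.05, with levels of 0.66, 0.71, 0.71 and 0.77 in WT and of 0.58, 0.51, 0.53 and 0.50 in KO (difference -0.18, SE 0.04, adjusted p = 0.0407). At an unadjusted p under 0.05 there were 10 of 37 (27.0%), all lower, against 26.2% of all tested genes in either direction and 15.3% that were lower. Of 6 tested genes from the rest of the Usher complexes, 4 had a lower mean, or 3 after quantile normalization, and none was called. The differences were 0.25 for Ush1g and 0.12 for Adgrv1, the 2 with an unadjusted p under 0.05 (2 of 6, against 26.2% of all tested genes).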

How the data were processed

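Gene expression was measured on 1-colour arrays from 4 WT and 4 KO retina samples. Per the file headers, the authors deposited the linear intensity of each spot from Agilent Feature Extraction (version 10.7.1.1, in the submitters' processing notes), already background-subtracted, with flags (0 or 1) for spots above background, saturated spots and outliers, and a table of log2 values shifted to the 75th percentile by the authors. The deposited table differed from the values used here by 1 constant per array. Here each array's log2 intensities were shifted by their 75th percentile, taken without control spots (59305 spots), outlier spots (86 to 147 per array) were dropped and repeated spots averaged. A probe was tested when well above background on all 4 arrays of a genotype, which kept 33975 of 55681 probes. KO was compared with WT in limma 3.58.1 (R 4.3.3) with no covariate, and p was adjusted over all tested probes. The script was tested on simulated data. The number of arrays limits the precision. Symbols came from the RefSeq gene table of GRCm38.p6 through transcript accessions, which named 26413 probes, 63 of them for the connecting cilium genes, and promoter sequences from RefSeq of the same build. The array design uses another build, and no probe coordinates are given. The 39 genes, the comparison lists and the marker lists were chosen with earlier results of these data known. The rule was to name all 39 genes, with values per array for called genes and for the 2 tested genes of each role group with the largest differences. 1 of the 39 genes is counted but not reported here by itself. Values per array are also given for any gene whose adjusted p was under 0.05 among the 39 and for those singled out in the other lists. The alternatives were other scalings, filters, tests, fold limits and probe rules, a replicate block and leaving out each array.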

Additional observations from a re-analysis of the deposited data

Results flagged for a closer look

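An array was picked out when the gap to the nearest other array of its genotype, as a share of the range of the 4 arrays, passed the critical value of Dixon's test at 95%. Of 76 sets of 4 values tested, 8 contained such an array, where chance would give about 5%. KO replicate 4 stood apart for 3 genes. Its level was -1.21 for Tctn1, with the other KO arrays between -0.98 and -0.98, so the called difference of Tctn1 is larger with it (-0.28) than without it (-0.22). It was 2.25 for Lca5, with the others at 2.15 to 2.16, and 3.50 for Rab11fip3, with the others at 3.44 to 3.45. WT replicate 1 also stood apart for 3 genes, at 7.05 for Rpgrip1 (others 7.13 to 7.15), 2.41 for B9d1 (others 2.45 to 2.45) and -2.52 for Rp2 (others -2.74 to -2.71). KO replicate 3 was at 2.29 for B9d1, nearer to WT than the other KO arrays at 2.15 to 2.17. KO replicate 1 was at 3.63 for Arl6, below the others at 3.75 to 3.77.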

How the results depend on the processing

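The results were recomputed under 22 alternatives. Called connecting cilium genes numbered 2. They numbered 1, Fam161a, after normalization by quantiles, by the median or by the percentile of those probes that all arrays detected, after normexp background correction, with the authors' values, with no filter on dim probes and by the methods' t-test. They numbered 7 with no minimum fold change, 0 at a minimum fold change of 1.5, and 1 to 2 when 1 array was left out. Intraflagellar transport and BBSome genes called numbered 1, and 0 under quantile normalization, the median shift, the percentile of detected probes, the authors' values, no filter, the 1.5-fold limit and the mean of a gene's probes, 7 with no minimum fold change, and 0 to 1 with 1 array left out. Of the other transition zone genes, 1 was called with no minimum fold change. Of all probes, 993 were called (522 lower and 471 higher), 246 with no filter, 1870 with no minimum fold change, 139 at 1.5-fold, and 369 (without WT replicate 2) to 1184 (without KO replicate 1) with 1 array left out. The split was 367 lower and 584 higher with the percentile of detected probes. The median difference of the 38 genes was -0.09, -0.055 after quantile normalization, and -0.10 to -0.07 with 1 array left out. The cause of these changes was not tested.

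The replicate numbers are not stated to pair the samples, and the deviations of same-numbered arrays correlated at 0.04 to 0.25, with 3 of 4 WT arrays closest to the KO array of their own number. With the number as a replicate block, 0 connecting cilium genes, 0 intraflagellar transport and BBSome genes and 395 probes were called, and the adjusted p was 0.0515 for Fam161a and 0.0909 for Tctn1.

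The direction never changed for 29 of the 38 genes, nor for any with a difference over 0.1 in size. The changes were among genes near 0. After quantile normalization Ahi1 was at 0.0084, Rp1l1 at 0.018, Ush1c at 0.0038 and Pcdh15 at 0.021. After the median shift Rp1l1 was at 0.0053 and Pcdh15 at 0.0072. With the percentile of detected probes Ahi1 was at 0.010, Rp1l1 at 0.017, Rp2 at 0.0069 and Pcdh15 at 0.019. With normexp Cc2d2a was at -0.015 and Pcdh15 at 0.036, and with the authors' values Ahi1 was at 0.00033, Rp1l1 at 0.0070 and Pcdh15 at 0.0088. With the mean of a gene's probes Tmem231 was at 0.030, Cep164 at -0.0013 and Pcdh15 at 0.041. With 1 array left out the differences ranged from -0.013 to 0.078 for Iqcb1, -0.034 to 0.0088 for Ahi1, -0.044 to 0.075 for Cc2d2a, -0.051 to 0.061 for Rp1l1, -0.081 to 0.036 for Rp2, -0.0019 to 0.047 for Cep164, -0.073 to 0.016 for Ush1c and -0.028 to 0.023 for Pcdh15. Other small differences kept their sign but varied in size. They were -0.086 to -0.023 for Rab8a, -0.067 to -0.0045 for Myo7a and -0.059 to -0.00077 for Sdccag8. For Inpp5e they were -0.051 to -0.016, for Topors 0.018 to 0.062 and for Rab3ip 0.0028 to 0.041.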
